A study of Mus musculus with 6 samples.

Results

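The miR-148 and miR-152 family consists of 3 microRNA (miRNA) hairpins, miR-148a, miR-148b and miR-152. Its 6 mature products, a 5p and a 3p arm of each hairpin, were picked by name from the 1966 mature miRNAs of the deposited count table, and all 6 were found and passed the filter on low counts, among 354 miRNAs tested. The table covers whole hearts of 6 male wild-type (WT) mice, collected 8 weeks after surgery. In 3 mice (animals 29, 78 and 81) transverse aortic constriction (TAC) had narrowed the aorta, which loads the left ventricle with pressure, and 3 mice (animals 47, 68 and 69) had sham surgery. Each mouse gave 1 library. The sources used here give no strain, age or batch.

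A miRNA hairpin is cut into a short duplex, of which 1 strand, the guide, is loaded into an Argonaute protein, and the other, the passenger, is mostly degraded. The guide pairs with messenger RNAs mainly through its seed, bases 2 to 8, and lowers their translation and stability. In this family the 3p arm is the guide. The family is known for repressing mRNAs of the DNA methyltransferases DNMT1 and DNMT3B, and miR-148a also for a role in liver cholesterol metabolism through the LDL receptor.

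The 3 guides are shown because they share a seed, given in capitals, and differ only further downstream (mouse RefSeq sequences, GRCm38.p6, 5′ to 3′).
miR-148a-3p: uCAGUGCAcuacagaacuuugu
miR-152-3p: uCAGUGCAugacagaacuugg
miR-148b-3p: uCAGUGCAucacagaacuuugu
Counted from 1 at the 5′ end, miR-148b-3p carries C9U and U10C relative to miR-148a-3p, and miR-152-3p carries C9U, U10G and U20G relative to it. miR-148a-3p and miR-148b-3p were alike in length (22 nt) and GC content (40.9%), whereas miR-152-3p had 21 nt and 47.6% GC. Among the 1675 rows of the table with a RefSeq mature sequence, these 3 were the only ones with this seed.

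The passengers are shown with bases 2 to 8 in capitals, since those bases are shared by only a pair of them.
miR-148a-5p: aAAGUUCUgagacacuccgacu
miR-152-5p: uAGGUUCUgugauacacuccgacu
miR-148b-5p: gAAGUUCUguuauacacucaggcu
The longest run common to miR-148a-5p and miR-152-5p was 11 nt (ACACUCCGACU, at their 3′ ends), and the longest run that miR-148b-5p shared with either was 8 nt.

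In the hairpins the capitals mark the 5p and then the 3p arm, with 16 nt between the arms in miR-148a, 15 nt in miR-152 and 13 nt in miR-148b.
miR-148a: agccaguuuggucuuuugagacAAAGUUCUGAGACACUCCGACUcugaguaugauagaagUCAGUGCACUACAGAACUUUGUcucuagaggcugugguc
miR-152: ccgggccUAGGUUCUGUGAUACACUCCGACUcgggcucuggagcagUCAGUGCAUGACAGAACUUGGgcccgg
miR-148b: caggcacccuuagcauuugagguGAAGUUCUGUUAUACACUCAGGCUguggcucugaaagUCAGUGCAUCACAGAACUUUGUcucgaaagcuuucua

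The loci lie on 3 chromosomes of build mm10. The miR-148a hairpin, at chr6:51269812-51269910 on the minus strand, has no annotated host gene in GENCODE M21, and the nearest gene, the lincRNA Gm32479, was 13.7 kb from miR-148a-3p. The miR-152 hairpin, at chr11:96850393-96850465 on the plus strand, lies in an intron of all 3 annotated transcripts of Copz2 that span it. The miR-148b hairpin, at chr15:103285125-103285221 on the plus strand, lies in an intron of all 4 such transcripts of Copz1. Copz1 and Copz2 are paralogues that encode the zeta subunit of the COPI vesicle coat, and both run on the strand of their miRNA. Each of the 6 rows has a single place in the table. Within 50 kb of them 0 other rows were found, and 0 rows overlapped them. The table holds no mRNA, so the host transcripts were not measured.

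Total counts ranged from 1818725 to 3509001 in the sham libraries and from 1226187 to 1795831 in TAC. Every TAC library was thus smaller than every sham library, so depth and group cannot be told apart. The 3 counts that a count of 0 allows corresponded to 0.855 to 2.45 CPM (counts per 1000000 counts of the library), for counting error only. All 4 heart muscle markers were present, with summed levels of 151712 to 182942 CPM in sham and 273330 to 325701 CPM in TAC, and all 4 were higher in TAC by the test below. Smooth muscle markers (4 miRNAs) summed to 34623 to 43243 CPM in sham and 59518 to 62550 in TAC (3 higher, 0 lower). The 4 mesenchymal markers summed to 13559 to 21774 CPM in sham and 11579 to 12074 in TAC (0 higher, 4 lower). Leukocyte markers (5) ranged in sum from 213 to 230.2 CPM in the sham libraries and from 335 to 352 in TAC. The 3 red blood cell markers ranged from 963 to 1122 and from 1597 to 2994 CPM, with 1 higher and 0 lower in each list. miR-142a-3p, miR-486a-5p and both endothelial markers, miR-126a-3p and miR-126a-5p, were at 0 in every library, and all 4 lie over a row of the opposite strand, so these zeros were not read as absence. The part of these markers in the results below was not tested. In whole tissue, fewer cells of a type and less RNA per cell cannot be told apart.

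Set against sham, TAC shows which miRNAs of the heart differ under a lasting pressure load. In this family 1 member, the guide miR-148a-3p, rose in TAC, by 1.48-fold. Its seed-sharing relatives miR-152-3p and miR-148b-3p and the 3 passengers did not pass the test. miR-148a-3p made up a larger part of all reads with the family seed in every TAC library than in any sham library. The margin was small between sham 47 (89.6%) and TAC 29 (89.8%). Both ratios of miR-148a-3p to another guide had a p of 0.1 by exact permutation test (adjusted 0.15). With 3 against 3 mice this test cannot go below 0.1, so it could not decide whether the change was unequal. Calls are those of edgeR's quasi-likelihood test with Benjamini-Hochberg adjustment over all 354 tested miRNAs, at an adjusted p under 0.05. By that rule 19.2% of tested miRNAs were called higher in TAC, 11.3% lower and 30.5% in either direction, so 1 call among 6 members is not above the background. How many were higher or lower turned with the scaling. TMM gave 68 higher and 40 lower, library totals 25 higher and 102 lower, upper quartile scaling 41 higher and 63 lower, RLE scaling 50 higher and 56 lower, and totals that omit the 5 most abundant miRNAs 43 higher and 72 lower. Levels are CPM scaled by TMM factors, which correct for differences in composition between libraries. The factors also split by group, at 1.10 to 1.13 in sham and 0.87 to 0.92 in TAC.

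miR-148a-3p was the most abundant member and ranked 13 of the 354 tested miRNAs by mean level. Its level was 21304, 21090.2 and 19063 CPM in sham 47, 68 and 69 and 24799.9, 36674 and 29754 CPM in TAC 29, 78 and 81. In these TMM-scaled values the lowest TAC library lay above the highest sham library. The TAC libraries were spread more widely, with TAC 78 the highest. Groups failed to overlap in TMM-scaled CPM, in either direction, for 51.4% of tested miRNAs. As a share of library totals, without TMM, miR-148a-3p did overlap. There TAC 29, at 2.28%, lay inside the sham range of 2.15% to 2.37%. The means were 20486 ± 1237 CPM in sham and 30409 ± 5964 CPM in TAC (SD, n = 3 each). The log2 fold change was 0.57 ± 0.14 (standard error), with a 95% interval of 0.25 to 0.89 and an edgeR adjusted p = 0.017.

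**Figure D1:**
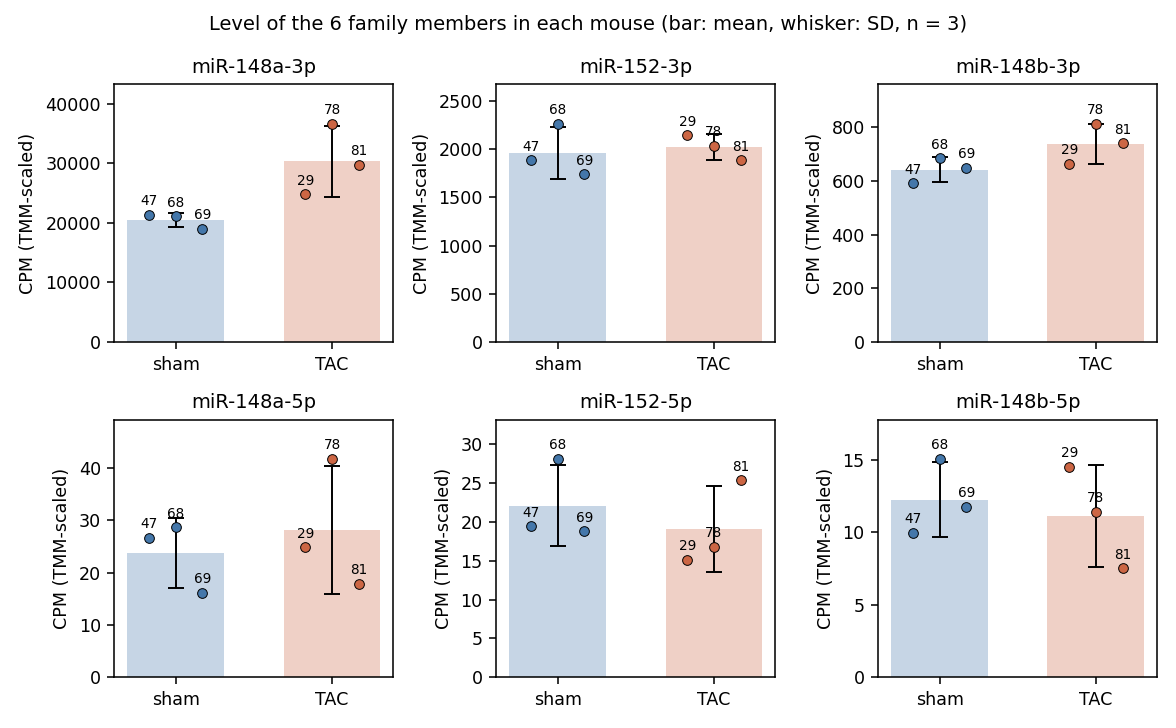
Level of each family member in each mouse, in TMM-scaled CPM on linear axes from 0; points are mice labelled by animal number, bars are group means and whiskers the SD (n = 3). The 3 TAC points of miR-148a-3p sit between 24799.9 and 36674 CPM, above the 3 sham points, while the groups of the other 5 members overlap.

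The call of miR-148a-3p depended on which mice were included and on the scaling. It was lost, by edgeR adjusted p, without sham 69 (log2 fold change 0.51, adjusted p = 0.0636), without TAC 78 (0.40, 0.0686) and without TAC 81 (0.58, 0.0526), and also with library totals in place of TMM (0.26, 0.169) and after each library's trend with GC content was removed (0.37, 0.14). Leaving out a mouse also lowered the calls over all tested miRNAs, from 108 to between 64 and 83. Without TAC 81 the log2 fold change of miR-148a-3p was not smaller than the 0.57 of the main analysis. In the plot of the settings for miR-148a-3p, 12 of 17 alternatives kept the call, and the change was above 0 in all 17. Other scalings move all miRNAs together: the median log2 fold change of all tested miRNAs was 0.07 with TMM and -0.235 with library totals. The value relative to that median could therefore hardly differ between scalings, and for miR-148a-3p it was 0.50 with each of the 5. It was 0.37 after the GC trend was removed. When a mouse was left out, it lay between 0.35 (without TAC 78) and 0.68 (without TAC 29).

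**Figure D2:**
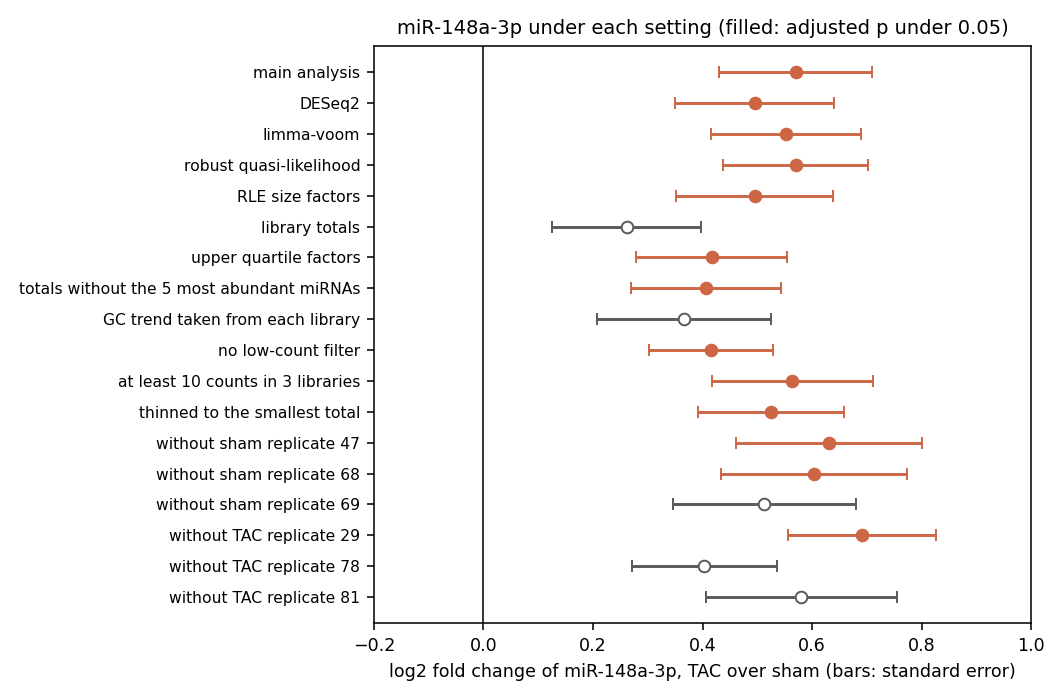
log2 fold change of miR-148a-3p (TAC over sham, horizontal axis) with its standard error under the main analysis and 17 alternatives, filled where the adjusted p was under 0.05. All points lie above 0, between 0.26 and 0.69, and 5 are open.

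miR-152-3p, the guide from the Copz2 intron, was the second member by level and ranked 49 of 354. It was at 1883, 2264 and 1739 CPM in sham 47, 68 and 69 and at 2144, 2037 and 1884 CPM in TAC 29, 78 and 81. All TAC values lay inside the sham range. The means were 1962 ± 271 CPM in sham and 2022 ± 131 CPM in TAC (SD, n = 3 each). The log2 fold change was 0.04 ± 0.11 (edgeR adjusted p = 0.777), with a 95% interval of -0.21 to 0.30. This interval overlaps that of miR-148a-3p, and the direct comparison of these guides is given below as a ratio. The sign for miR-152-3p depended on the scaling, at -0.26 with library totals and -0.03 with RLE size factors. Relative to the median of all tested miRNAs it was at -0.03 with each of the 5 scalings, which can hardly move this value. That value was 0.03 without a low-count filter, and between -0.13 (without sham 69) and 0.05 (without sham 68) when a mouse was left out.

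miR-148b-3p, the guide from the Copz1 intron, ranked 73 of 354. Its level was 591, 685 and 649 CPM in sham 47, 68 and 69 and 663, 813 and 741 CPM in TAC 29, 78 and 81. TAC 29 fell inside the sham range and the other TAC libraries above it. The means were 642 ± 47.0 and 739 ± 75.1 CPM (SD, n = 3 each), and the log2 fold change was 0.20 ± 0.11 (edgeR adjusted p = 0.195) with a 95% interval of -0.05 to 0.46. It turned to -0.10 with library totals. Relative to the median of all tested miRNAs it was at 0.13 with each of the 5 scalings, at 0.01 after the GC trend was removed, and between 0.06 (without sham 47) and 0.26 (without TAC 29) when a mouse was left out.

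**Figure D3:**
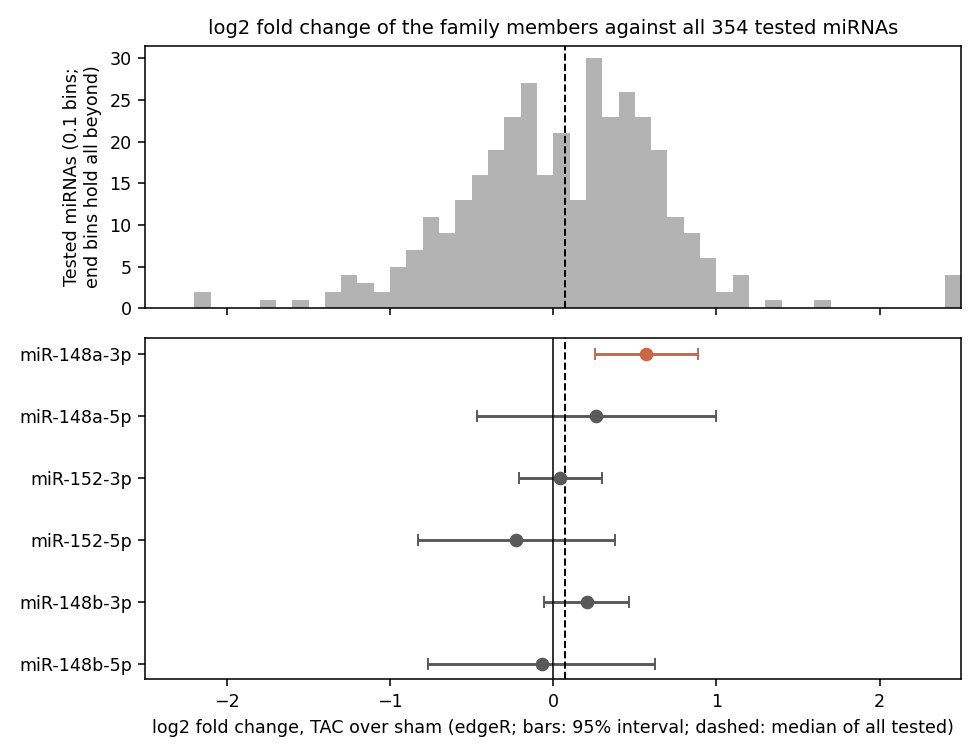
Upper panel, number of tested miRNAs by log2 fold change (TAC over sham, edgeR); lower panel, the 6 family members with 95% intervals, coloured where called; dashed lines mark the median of all 354 tested miRNAs, 0.07. The interval of miR-148a-3p alone lies above 0, and the passengers' intervals are the widest.

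Between the guides, the order of levels was the same in all 6 libraries and the gaps were far larger than the spread between mice. The mature miRNAs of the family are alike in length, at 21 to 24 nt, and counts were not divided by length. How efficiently each sequence enters a library was not measured. Of the reads with the family seed, miR-148a-3p held 89.6%, 87.7% and 88.9% in sham 47, 68 and 69, against 89.8%, 92.8% and 91.9% in TAC 29, 78 and 81. The groups did not overlap, although TAC 29 and sham 47 were close. miR-152-3p held 8.48% ± 0.815 of these reads in sham and 6.25% ± 1.36 in TAC, and miR-148b-3p 2.79% ± 0.274 and 2.25% ± 0.175 (SD, n = 3 each). Together the 3 guides held 2.57% ± 0.128 of all counts in sham and 2.98% ± 0.542 in TAC, with TAC 29, at 2.54%, inside the sham range of 2.42% to 2.65%. These are shares of library totals, without TMM scaling. Fitted with TMM as 1 row, the summed guides had a log2 fold change of 0.49 ± 0.14, given with no p because it is a sum over chosen members.

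Ratios of guides within a library need no scaling and ask whether the members changed unequally. The log2 ratio of miR-148a-3p to miR-152-3p was 3.50, 3.22 and 3.45 in sham 47, 68 and 69, against 3.53, 4.17 and 3.98 in TAC 29, 78 and 81, a difference of 0.50, or 1.42-fold. The log2 ratio of miR-148a-3p to miR-148b-3p, which have the same length and GC content, was 5.17, 4.94 and 4.88 in sham and 5.22, 5.49 and 5.33 in TAC, a difference of 0.35, or 1.28-fold. In both ratios every TAC library lay above every sham library, by a small margin between sham 47 and TAC 29. Each had a two-sided exact permutation p of 0.1, the smallest that 3 against 3 allows, and 0.15 after adjustment over the 3 ratios. The log2 ratio of miR-152-3p to miR-148b-3p was 1.67, 1.73 and 1.42 in sham and 1.69, 1.32 and 1.35 in TAC, so the groups overlapped (difference -0.15, and -0.27 without TAC 29, -0.24 without sham 69, -0.09 without sham 68 or TAC 78 and -0.10 without TAC 81; exact permutation p = 0.3, adjusted 0.3). Whether reads with mismatches were assigned to more than 1 of these near-identical guides is not given in the sources used here.

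**Figure D4:**
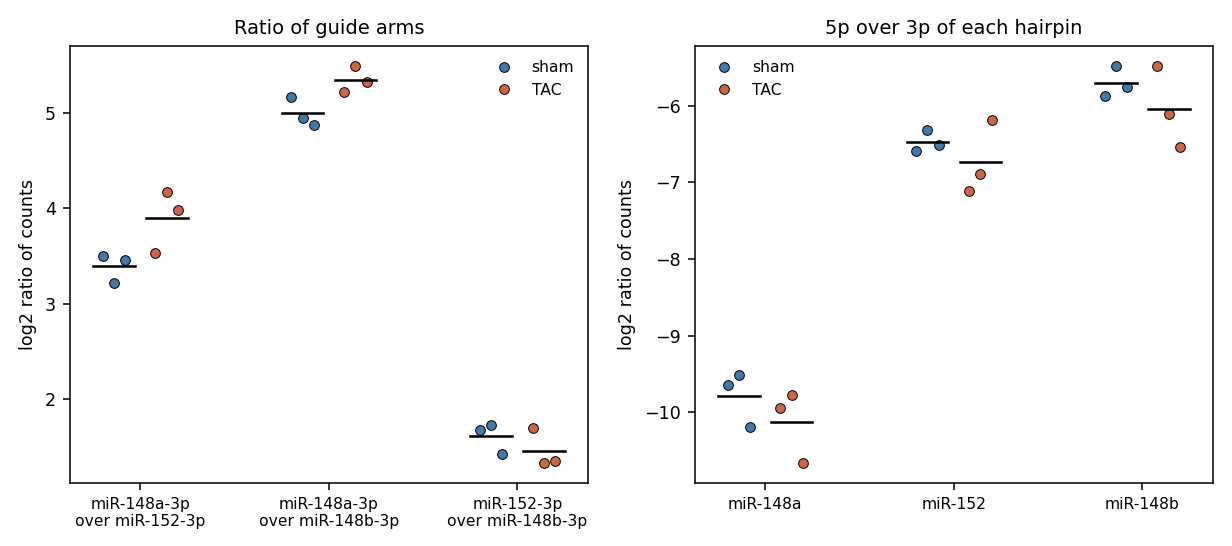
log2 ratios of counts in each mouse (a count of 0.5 added to each), left between guides and right of the 5p over the 3p arm of each hairpin; points are mice and lines group means. Both ratios with miR-148a-3p on top are higher in the 3 TAC mice than in the 3 sham mice, whereas the groups overlap in all 3 arm ratios.

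The passengers were rare. miR-148a-5p was at 26.6, 28.6 and 16.1 CPM in sham 47, 68 and 69 and at 24.8, 41.7 and 17.9 CPM in TAC 29, 78 and 81. TAC 78 was the highest library, as it was for miR-148a-3p, but the other TAC libraries lay inside the sham range (log2 fold change 0.26 ± 0.32, 95% interval -0.47 to 0.999, edgeR adjusted p = 0.544). miR-152-5p was at 19.4, 28.1 and 18.8 CPM in sham and 15.1, 16.8 and 25.4 CPM in TAC. TAC 29 and 78 were below the sham range and TAC 81 inside it (-0.23 ± 0.27, 95% interval -0.83 to 0.38, edgeR adjusted p = 0.525). miR-148b-5p, the rarest member, was at 9.98, 15.1 and 11.8 CPM in sham and 14.5, 11.4 and 7.52 CPM in TAC. Its groups overlapped (-0.07 ± 0.31, 95% interval -0.77 to 0.63, edgeR adjusted p = 0.871). The ranges of miR-148a-5p and miR-152-5p overlapped, so their order was not resolved, while miR-148b-5p was the lowest of the 3 passengers in every library. These values rest on few reads: miR-148b-5p had 8 counts in TAC 81, with an exact Poisson 95% interval of 3.45 to 15.8, and the highest passenger count was 104, for miR-148a-5p in sham 47.

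The strand bias towards the 3p arm was present in all 3 hairpins and differed between them. In miR-148a the 5p arm held between 0.06% (TAC 81, exact Clopper-Pearson 95% interval 0.0361% to 0.0937%) and 0.136% (sham 68, 0.103% to 0.176%) of the reads of both arms. In miR-152 it held between 0.70% (TAC 29, 0.454% to 1.03%) and 1.33% (TAC 81, 0.878% to 1.93%), and in miR-148b between 1.01% (TAC 81, 0.435% to 1.97%) and 2.15% (sham 68, 1.46% to 3.06%). These intervals cover counting error only. Reads of the 3p arm thus outnumbered those of the 5p arm by 737 to 1666 times in miR-148a, 74.2 to 142 times in miR-152 and 45.4 to 98.5 times in miR-148b. The miR-148a range lay apart from both others, and those of miR-152 and miR-148b overlapped.

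The log2 ratio of the 5p to the 3p arm was -9.78 ± 0.363 in sham and -10.13 ± 0.474 in TAC for miR-148a, a difference of -0.35. It was -6.47 ± 0.14 and -6.73 ± 0.486 for miR-152, and -5.71 ± 0.201 and -6.04 ± 0.529 for miR-148b (SD, n = 3 each). The groups overlapped in all 3 hairpins, with two-sided exact permutation p of 0.4, 0.5 and 0.4 and adjusted p = 0.5 for each. The 5p counts of 19, 27 and 8 in TAC 81, for miR-148a, miR-152 and miR-148b, limit the precision of these ratios. Single mice moved the differences: that of miR-148a was -0.08 without TAC 81, -0.21 without sham 68, -0.52 without TAC 78 and -0.55 without sham 69. That of miR-152 was -0.07 without TAC 29 and -0.53 without TAC 81, and that of miR-148b -0.09 without TAC 81 and -0.62 without TAC 29.

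Over the 6 libraries, Pearson's r of log2 CPM was 0.87 between miR-148a-3p and miR-148b-3p, 0.18 between miR-148a-3p and miR-152-3p and 0.24 between miR-152-3p and miR-148b-3p. These correlations are descriptions over 6 libraries that share the group difference and the scaling. Between the arms of a hairpin r was 0.53 for miR-148a, 0.14 for miR-152 and -0.16 for miR-148b. The 3 tested miRNAs most like miR-148a-3p were miR-181a-2-3p (r = 0.98), miR-450a-5p (0.98) and miR-365-3p (0.98). All 3 had their highest level in TAC 78, and of them miR-450a-5p was called higher (log2 fold change 0.58 ± 0.18, edgeR adjusted p = 0.0431). Those most like miR-152-3p were miR-1943-5p (0.89), miR-193b-5p (0.88) and miR-345-3p (0.85), and those most like miR-148b-3p were miR-130a-3p (0.95), miR-211-5p (0.94) and miR-3102-3p (0.92). None of these 6 was called by edgeR.

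The relatives whose seed is shifted by 1 base, the miR-130 and miR-301 miRNAs, had few or no counts. miR-130a-3p is shown because its bases 2 to 7 equal bases 3 to 8 of the family guides.
miR-130a-3p: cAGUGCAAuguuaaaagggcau
Of the 6 miRNAs in this list only miR-130a-3p could be tested. It was at 20.5, 23.6 and 24.3 CPM in sham 47, 68 and 69 and 22.4, 41.7 and 30.1 CPM in TAC 29, 78 and 81. TAC 29 lay inside the sham range and the others above it (log2 fold change 0.47 ± 0.24, edgeR adjusted p = 0.166). miR-130b-3p and miR-301a-3p had at most 3 and 8 counts in any library, and miR-130c, miR-301b-3p and miR-721 had 0 in all 6. Of the rows with a RefSeq sequence, 7 held these 6 bases at bases 2 to 7, of which 1 was tested.

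A list of 7 other miRNAs described as acting on DNA methyltransferase mRNAs was tested in full. It was chosen with earlier results of these data known, so its counts are a description. Several members are relatives (the miR-29 and miR-101 miRNAs) and do not count as independent. In it 5 rose, 0 fell and 2 did not pass, against 19.2% of all tested miRNAs called higher, and the median log2 fold change was 0.62 against 0.07 over all tested miRNAs. miR-101a-3p went from 2046 ± 133 to 3464 ± 258 CPM (log2 fold change 0.76 ± 0.09) and its near-identical relative miR-101b-3p from 1929 ± 131 to 3195 ± 240 CPM (0.73 ± 0.09), both with an edgeR adjusted p = 0.000901. These rows may share reads. miR-185-5p went from 321 ± 25.0 to 462 ± 19.4 CPM (0.52 ± 0.11, edgeR adjusted p = 0.0107). miR-29b-3p rose by 0.62 ± 0.18 (edgeR adjusted p = 0.0319), and so did miR-29c-3p, by 0.70 ± 0.23 (0.0464), although its TAC 81 value of 62.0 CPM lay below that of sham 47, 62.9 CPM. miR-29a-3p was at 0.35 ± 0.14 and miR-342-3p at 0.21 ± 0.16 (edgeR adjusted p = 0.084 and 0.314). With library totals, with the GC trend and without a low-count filter 2 members were called higher, where 7.06%, 11.1% and 3.82% of all tested miRNAs were, and leaving out sham 68, sham 69, TAC 29 or TAC 78 left 3, where 11.9% to 14.6% were.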

How the data were processed

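Small RNA libraries of 6 mouse hearts (3 sham, 3 TAC) were analysed from the table of read counts per mature miRNA that the authors deposited, in which each mouse has a column. The submitters' processing notes list HISAT2, StringTie, DESeq2 and build mm10 without saying what each was used for. How reads were trimmed, counted and assigned to a strand is not given in the sources used here. Each of the 6 columns was matched to a mouse by the animal number in the labels.

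The test was edgeR 4.0.16 (R 4.3.3; quasi-likelihood test with TMM scaling after filterByExpr, without covariates) on all 6 libraries, with the call at an adjusted p under 0.05 over all tested miRNAs. Standard errors are the log2 fold change divided by the root of F. Alternatives were DESeq2 1.42.0, limma-voom (limma 3.58.1), robust fits, other scalings and filters, a GC trend (local regression, span 0.75, for miRNAs with a RefSeq sequence), summed guides, thinning to the smallest total and leaving out each mouse. The ratios used counts plus 0.5 and exact permutation tests (scipy 1.17.1). The pipeline was tested on simulated data with the same spread for all miRNAs. There 39.6% of true 1.5-fold and 85.1% of true 2-fold changes were called, and 2.26% of calls were false. A change of about 1.5-fold can thus fail to pass. Mature and hairpin sequences are from RefSeq (GRCm38.p6), at the table's coordinates for all 6 members, and gene annotation is from GENCODE M21.

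miRNAs named are the members, the 2 related lists, the marker lists and, for each guide, the 3 tested miRNAs with the highest correlation. Members and lists were chosen with earlier results of these data known. No pair of libraries of a group agreed within counting error (chi-square from 31.6 to 67.8 per degree of freedom).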

Additional observations from a re-analysis of the deposited data

How the results depend on the processing

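No paired analysis was possible because the groups share no animal number. Of 354 tested miRNAs 108 were called, and 127 with library totals. The GC trend, which tested 315, gave 65 calls. Leaving out a mouse gave 64 (without TAC 81, and 69 without TAC 78) to 83. Of the members, 1 was called, 0 with library totals or the GC trend, and 0 (without sham 69, TAC 78 or TAC 81) to 1 when a mouse was left out. miR-148a-3p was at 0.57 (log2), 0.26 with library totals, 0.37 with the GC trend and 0.40 to 0.69 when a mouse was left out. miR-152-3p, at 0.04, turned to -0.0316 with DESeq2, -0.0321 with RLE size factors, -0.26 with library totals, -0.11 with upper quartile factors, -0.12 with totals without the 5 most abundant miRNAs, -0.0348 with the GC trend and -0.11 without a low-count filter, and lay between -0.0424 (without sham 69) and 0.17 when a mouse was left out (-0.0086 without TAC 29). With library totals miR-148a-5p was at -0.036 and miR-148b-3p at -0.10. When a mouse was left out, miR-148a-5p ranged from -0.14 (without TAC 78) to 0.47, and miR-148b-5p, at -0.07, from -0.32 to 0.10 (0.10 without sham 68 and without TAC 81). The DNA methyltransferase list had 5 members called higher, 2 with library totals, the GC trend or no filter, 3 with upper quartile factors or without the 5 most abundant miRNAs, and 3 (without sham 68, sham 69, TAC 29 or TAC 78) to 5 when a mouse was left out. Upper quartile factors called 11.6% of all tested miRNAs higher, and totals without the 5 most abundant miRNAs 12.1%. The guides' share of counts was 0.41 percentage points higher in TAC, 1.08 with totals without the 5 most abundant miRNAs (a smaller denominator), and 0.11 to 0.63 when a mouse was left out. The cause of the other changes was not tested. The differences of the ratios kept their sign in every alternative, but their size moved when a mouse was left out: from -0.55 to -0.08 for the arms of miR-148a, -0.53 to -0.07 for miR-152 and -0.62 to -0.09 for miR-148b, from 0.37 to 0.68 for miR-148a-3p over miR-152-3p, 0.28 to 0.44 over miR-148b-3p and -0.27 to -0.09 for miR-152-3p over miR-148b-3p. In addition, the exact permutation test of 3 against 3 mice cannot go below p = 0.1, and the passengers' low counts limit theirs.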
